A study of Mus musculus with 4 samples.

Results

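Transcripts of blood cells were followed in mouse brown adipose tissue, the fat depot that generates heat, through 7 genes chosen by their symbols. These were the adult haemoglobin genes Hba-a1, Hba-a2, Hbb-bs and Hbb-bt, the red cell gene Alas2 and the neutrophil genes S100a8 and S100a9. Of the 7 genes, 6 were among the 17259 genes of the table and 5 were abundant enough to be tested, whereas S100a8 had no row in the table used here. The 4 libraries came from wild-type (WT) mice and formed 2 groups of 2, RNA of isolated mitochondria and RNA of the tissue without its mitochondria, which is called the non-mitochondrial fraction. No transgene, deletion or drug is named for either group, and the labels give no age, sex or strain and do not say whether replicates were separate animals, so that p-values measure only the spread between these samples. The second group is titled total and a supplement of the study speaks of total lysates, so that these libraries may hold whole tissue, and the treatment label was followed here. RNA outside intact mitochondria is removed with RNase in the protocol that the study gives for the heart, where animals are also perfused with saline before dissection. Whether either step was applied to brown adipose tissue is not given in the sources used here. The comparison asks how much blood RNA each fraction held.

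Haemoglobin carries oxygen in red blood cells as a tetramer of alpha and beta globin chains, each with a haem group. Mature mouse red cells have lost nucleus and mitochondria but younger ones, the reticulocytes, still contain globin mRNA in large amounts, which is why globin transcripts commonly serve as a sign of blood in a tissue. The haem is made in a pathway that begins and ends in mitochondria, and Alas2 encodes the red cell form of its first enzyme, 5-aminolevulinate synthase. S100a8 and S100a9 encode the subunits of calprotectin, a calcium-binding protein that neutrophils hold in large amounts.

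The labelled tissue was checked first. Ucp1, the uncoupling protein of brown fat, was at 1290 and 3554 normalised counts in mitochondria against 4819 and 4185 in the non-mitochondrial fraction. All 12 genes of a brown adipocyte list were listed, but so were all 12 liver and all 10 skeletal muscle genes. Being listed therefore does not tell these tissues apart. A normalised count is a read count divided by a size factor of the library. In mitochondria 1 read corresponds to 8.32 units (replicate 1) or 6.90 units (replicate 2), while the reads behind a unit are unknown in the non-mitochondrial fraction. In the mitochondria libraries 26288868 and 24909319 reads were assigned to listed genes, which is not the sequencing depth. Only 59288 and 67370 of these fell on nuclear genes without a match to mitochondrial transcripts, and these reads set the precision for blood transcripts. Liver and skeletal muscle transcripts also differed between libraries. Liver genes such as Alb summed to 15611 and 1616 units in mitochondria against 660 and 358 in the non-mitochondrial fraction. Muscle genes such as Myh4 summed to 3554, 1132, 312 and 687 units in the same order. The part of these tissues in the values below was not tested.

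The alpha globin genes Hba-a1 (ENSMUSG00000069919, chr11:32283511-32284465, plus strand) and Hba-a2 (ENSMUSG00000069917, chr11:32296489-32297298, plus strand) and the beta globin genes Hbb-bs (ENSMUSG00000052305, chr7:103826534-103828096, minus strand) and Hbb-bt (ENSMUSG00000073940, chr7:103812524-103813996, minus strand) are neighbouring copies (GRCm38), each with 3 exons in the transcript examined. The copies are so alike that this decides which reads are counted, since reads that align to several places were left out by the authors. Across the coding sequence without the stop codon, Hba-a1 and Hba-a2 differ at 1 of 426 bases (C381T) and Hbb-bs and Hbb-bt at 1 of 441 bases (C417T), counted from 1 at the A of the start codon, with the first-named copy's base first. The stretches around these bases are shown because they are the places within the coding exons of GRCm38 where a read can be assigned to 1 copy. They are written 5′ to 3′ on the coding strand with the differing base in capitals and cover chr11:32284313-32284372, chr11:32297130-32297189, chr7:103826668-103826727 and chr7:103812659-103812718, each within 1 exon.
Hba-a1: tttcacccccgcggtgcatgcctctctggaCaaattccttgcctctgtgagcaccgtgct
Hba-a2: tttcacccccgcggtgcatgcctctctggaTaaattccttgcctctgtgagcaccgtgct
Hbb-bs: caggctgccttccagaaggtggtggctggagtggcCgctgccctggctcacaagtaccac
Hbb-bt: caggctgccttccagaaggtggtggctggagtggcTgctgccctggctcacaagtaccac

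Of all stretches of 75 bases, the length of a read before trimming, in the transcripts of GENCODE M21, 389 of 625 in Hba-a1 (62.2%) and 389 of 480 in Hba-a2 (81.0%) occur identically in the other copy. In Hbb-bs 356 of 554 (64.3%) and in Hbb-bt 356 of 629 (56.6%) do. Within the coding sequence only 46 of 352 windows tell the alpha copies apart and 25 of 367 the beta copies, and the other windows that tell copies apart reach into the untranslated ends. The 4 transcripts had 0 matches of at least 95% identity over 75 bases in any other gene. Values of single globin copies are therefore uncertain, since they count reads from stretches that differ, and the sums leave out reads that suit both copies of a pair.

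**Figure D1:**
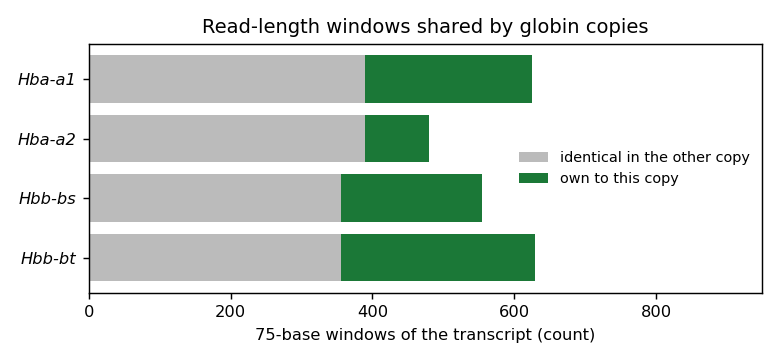
Number of 75-base windows in 1 transcript each of Hba-a1, Hba-a2, Hbb-bs and Hbb-bt (horizontal axis), divided into windows that are identical in the other copy (grey) and windows own to the gene (green). Own windows number 236, 91, 198 and 273, so that Hba-a2 offers the fewest to a read that must align to 1 place.

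The bases before the transcription starts were compared because the adult globins and Alas2 are known to be switched on together in red cell precursors, in which the factors GATA1 and KLF1 bind GATA and CACCC motifs. In the 250 bases before the RefSeq start, the alpha copies were 97.6% identical in a global alignment and the beta copies 69.3%, while an alpha and a beta copy were 45.9 to 49.3% identical. RefSeq promoters were matched for 7 of 7 genes. The last 110 bases of these stretches (GRCm38.p6) are written 5′ to 3′ on the gene's strand, with matches on either strand to TATAA (the core of the TATA box), CCAAT (the box of that name), CACCC (a core bound by KLF1) and GATAA (a core bound by GATA1) in capitals. They lie at chr11:32283562-32283671 (Hba-a1, plus), chr11:32296382-32296491 (Hba-a2, plus), chr7:103827929-103828038 (Hbb-bs, minus), chr7:103813924-103814033 (Hbb-bt, minus) and chrX:150547307-150547416 (Alas2, plus). The gene intervals of the table begin upstream of the RefSeq starts in these 5 genes, so that the stretches of Hba-a1 and Hbb-bs lie wholly, and those of the other genes in part, inside the annotated gene.
Hba-a1: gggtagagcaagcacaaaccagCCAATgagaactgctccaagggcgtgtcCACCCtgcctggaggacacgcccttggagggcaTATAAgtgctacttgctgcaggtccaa
Hba-a2: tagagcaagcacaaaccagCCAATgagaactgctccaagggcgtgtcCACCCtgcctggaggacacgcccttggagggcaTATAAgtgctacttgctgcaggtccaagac
Hbb-bs: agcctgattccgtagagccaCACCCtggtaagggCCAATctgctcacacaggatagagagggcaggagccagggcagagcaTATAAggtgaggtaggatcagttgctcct
Hbb-bt: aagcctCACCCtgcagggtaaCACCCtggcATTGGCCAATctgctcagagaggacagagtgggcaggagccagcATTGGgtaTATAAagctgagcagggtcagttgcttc
Alas2: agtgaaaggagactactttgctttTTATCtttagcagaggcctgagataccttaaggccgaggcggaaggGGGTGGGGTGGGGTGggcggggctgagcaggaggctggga

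All 4 globin promoters held each of the 4 motifs within 250 bases. TATAA began at -27 in Hba-a1, -30 in Hba-a2, -29 in Hbb-bs and -28 in Hbb-bt (a further match in Hbb-bt began at -229), and CCAAT at -88, -91 and -76 in Hba-a1, Hba-a2 and Hbb-bs and at -80, -75 and -36 in Hbb-bt. Alas2 held CACCC 3 times and GATAA once but no CCAAT, and its TATAA letters lay far upstream at -208 and -207 (1 site read on both strands, the only overlap among all matches). Of 32851 promoters of the same length, 22.8% held TATAA, 33.8% CCAAT, 52.0% CACCC and 22.6% GATAA, so that short motifs of this kind are common. S100a8 held TATAA alone, and S100a9 held CACCC and GATAA. A match is a run of letters and not a measured binding site.

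Globin RNA was present in all 4 libraries at a low level, and no globin gene passed the test between mitochondria and the non-mitochondrial fraction. Hba-a1 was at 67 and 159 normalised counts in mitochondria (8 and 23 reads) against 93 and 174 in the non-mitochondrial fraction. Its group means were 113 ± 65.1 and 133.5 ± 57.3 (SD, n = 2 each), and the log2 fold change, mitochondria over non-mitochondrial fraction on the scale of log2 (normalised count + 1), was -0.30 (SE 0.71, 95% interval -2.43 to 1.83, limma adjusted p 0.794). The groups overlapped, and replicate 2 was the higher one in both. Hba-a2 was at 50 and 235 units in mitochondria (6 and 34 reads) against 80 and 155 in the non-mitochondrial fraction. With means of 142.5 ± 131 and 117.5 ± 53.0 (SD, n = 2 each), its log2 fold change was -0.04 (SE 1.01, 95% interval -3.05 to 2.98, limma adjusted p 0.983). Both mitochondria values of Hba-a2 thus enclosed the pair of the other fraction.

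For the beta globins, Hbb-bs was at 108 and 186 units in mitochondria (13 and 27 reads) against 73 and 184 in the non-mitochondrial fraction. Means of 147 ± 55.2 and 128.5 ± 78.5 (SD, n = 2 each) gave a log2 fold change of 0.29 (SE 0.72, 95% interval -1.85 to 2.42, limma adjusted p 0.803). Again replicate 2 was higher in both groups, and the groups overlapped. Hbb-bt was at 0 and 48 units in mitochondria (0 and 7 reads) against 44 and 98 in the non-mitochondrial fraction. Its means were 24 ± 33.9 and 71 ± 38.2 (SD, n = 2 each) and its log2 fold change -3.25 (SE 2.24, 95% interval -9.94 to 3.43, limma adjusted p 0.441). This value rests on mitochondria replicate 1, where a count of 0 reads allows up to 25 units (3 reads, a one-sided limit, while the exact two-sided Poisson interval ends at 30.7 units). Without mitochondria replicate 1 the log2 fold change of Hbb-bt was -0.45. Without mitochondria replicate 2, which leaves the library at 0 reads as the only one of its group, it was -6.06. No globin gene passed the test, and the number of red cells cannot be told apart from the RNA per cell in bulk samples.

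**Figure D2:**
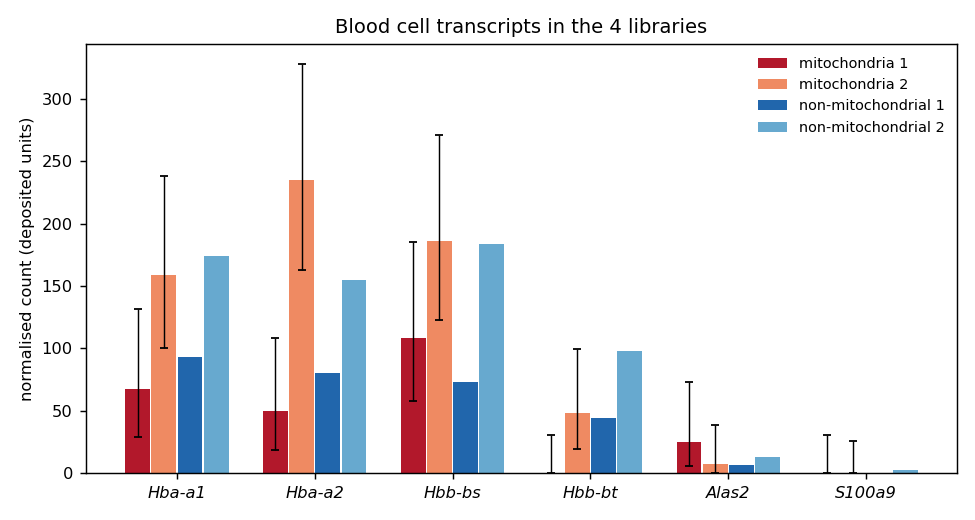
Normalised counts (vertical axis, deposited units) of the 6 listed genes in the 2 mitochondria (red shades) and 2 non-mitochondrial libraries (blue shades), 1 bar per library. Error bars are exact two-sided 95% Poisson intervals of the reads in mitochondria, and the other libraries have none because their reads are unknown. The 4 globins reach 235 units and are higher in replicate 2 of each fraction, whereas S100a9 reaches 2 units.

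Per kilobase of exon, Hbb-bs was at 141, 242, 95.1 and 240 units (mitochondria 1 and 2, non-mitochondrial 1 and 2), Hba-a1 at 82.5, 196, 115 and 214, Hba-a2 at 75, 352, 120 and 232, and Hbb-bt at 0, 68.3, 62.6 and 139. Hbb-bt was therefore the lowest globin per length in all 4 libraries, and the order of the other 3 changed between libraries. Divided by the windows that a read can be assigned with, the order within the alpha pair was the same in all libraries. Hba-a1 was at 28.4, 67.4, 39.4 and 73.7 units per 100 own windows and Hba-a2 at 54.9, 258, 87.9 and 170. In the beta pair Hbb-bs was at 54.5, 93.9, 36.9 and 92.9 units per 100 own windows and Hbb-bt at 0, 17.6, 16.1 and 35.9. With windows of 30 bases, the shortest reads that the study kept, Hba-a1 was at 35.1, 83.2, 48.7 and 91.1 units and Hba-a2 at 109, 511, 174 and 337 units per 100 own windows, so that the order was the same and the distance larger. This measure assumes 1 read length, even coverage and the transcript ends of GENCODE M21, which were not tested.

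Within the globins, the balance of alpha to beta chains differed between fractions by less than the spread of replicates. The alpha genes made up 52.0% of globin values in mitochondria replicate 1 (14 of 27 reads, 95% Wilson interval 34.0 to 69.3%) and 62.7% in replicate 2 (57 of 91 reads, 52.4 to 71.9%), compared with 59.7% and 53.8% in the non-mitochondrial fraction. With 57.4% ± 7.59 and 56.8% ± 4.11 (SD, n = 2 each), the means differed by 0.619 percentage points (two-sided exact permutation p 1.0). With 2 libraries against 2 there are 6 splits and the smallest p of this test is 0.333. Hbb-bt made up 0% of the beta globins in mitochondria replicate 1 (0 of 13 reads, up to 22.8%), 20.51% in replicate 2 (7 of 34 reads, 10.3 to 36.8%), and 37.6% and 34.8% in the non-mitochondrial fraction. The mitochondria values lay below both others, with a difference in the means of -25.9 percentage points (10.3% ± 14.5 and 36.2% ± 2.02, SD, n = 2 each, two-sided exact permutation p 0.333, the smallest possible), and the interval of mitochondria replicate 2 took in 1 of the 2 values of the other fraction. Hba-a2 made up 42.7% of the alpha globins in mitochondria replicate 1 (6 of 14 reads, 21.4 to 67.4%) and 59.6% in replicate 2 (34 of 57 reads, 46.7 to 71.4%), with 46.2% and 47.1% in the non-mitochondrial fraction. All such intervals cover counting error only, and reads are not independent molecules.

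As a measure of blood RNA, the 4 globins were summed and divided by the values of all 17205 nuclear genes without a match to mitochondrial transcripts. The share was 0.0456% in mitochondria replicate 1 (27 reads, 95% Wilson interval 0.0313 to 0.0663%) and 0.135% in replicate 2 (91 reads, 0.110 to 0.166%), and 0.0393% and 0.0843% in the non-mitochondrial fraction. Group means of 0.0902% ± 0.0630 and 0.0618% ± 0.0318 (SD, n = 2 each) differed by 0.0284 percentage points, less than the spread within either group, and the two-sided exact permutation p was 0.667. Leaving out 1 library gave differences of -0.0162 (without mitochondria replicate 2) to 0.0730 (without mitochondria replicate 1). With all nuclear genes in the total, thus also genes that match mitochondrial transcripts, the difference was -0.0529. The shares were then 0.00217% and 0.00806% in mitochondria against 0.0373% and 0.0787%, without overlap (two-sided exact permutation p 0.333, the smallest possible). With all genes in the total the means were 0.000234% and 0.0252%, a difference of -0.0249. As a share of nuclear genes without a match, the larger contrast was between replicates. Replicate 2 was at 2.95 times replicate 1 in mitochondria, where the intervals did not overlap, and at 2.14 times in the non-mitochondrial fraction. Related to Ucp1 as a measure of the fat cells, the globin sum came to 0.174 and 0.177 in mitochondria against 0.0602 and 0.146 in the non-mitochondrial fraction. The mitochondria ratios were above both others, with means of 0.176 ± 0.00161 and 0.103 ± 0.0607 (SD, n = 2 each, two-sided exact permutation p 0.333, the smallest possible). Groups also did not overlap in 60.7% of all tested genes. Ucp1 itself had a log2 fold change of -1.07 (limma adjusted p 0.426), near the median of all tested genes (-1.23). The ratio therefore also moves with Ucp1.

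**Figure D3:**
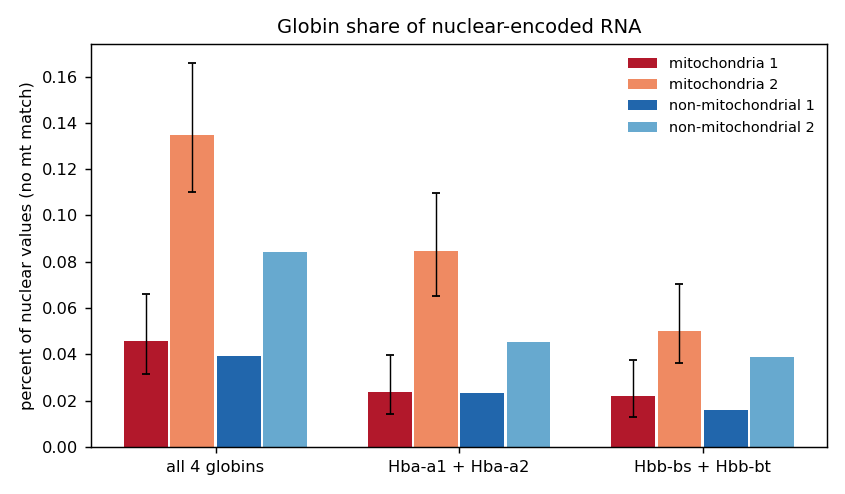
Share of the values of nuclear genes without a match to mitochondrial transcripts (vertical axis, percent) taken by all 4 globins, the alpha pair and the beta pair, 1 bar per library, with 95% Wilson intervals in the mitochondria libraries. Replicate 2 stands above replicate 1 in both fractions, and the fractions overlap, from 0.0393% to 0.135% for all 4 globins.

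Alas2 (ENSMUSG00000025270, chrX:150547375-150570638, plus strand) was near the limit of detection. It was at 25 and 7 units in mitochondria, which were 3 reads and 1 read, and at 6 and 13 units in the non-mitochondrial fraction. Means were 16 ± 12.7 and 9.5 ± 4.95 (SD, n = 2 each) and the log2 fold change was 0.54 (SE 0.86, 95% interval -2.03 to 3.11, limma adjusted p 0.691). The groups overlapped, and 3 reads in replicate 1 correspond to 5.15 to 73.0 units (exact 95% Poisson interval). Per kilobase Alas2 was at 10.4, 2.91, 2.50 and 5.41 units, below each globin in every library except for Hbb-bt in mitochondria replicate 1. In the non-mitochondrial fraction the ratio of Alas2 to the globin sum was alike in both replicates, 0.0207 and 0.0213, while in mitochondria it was 0.111 and 0.0111 from 3 reads and 1 read.

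Neutrophil transcripts were scarcely detected. S100a9 (ENSMUSG00000056071, chr3:90692632-90695721, minus strand) was at 0 reads in both mitochondria libraries and at 0 and 2 units in the non-mitochondrial fraction, and was too low to be tested. A count of 0 reads allows up to 25 units in mitochondria replicate 1 and 20.7 units in replicate 2 (3 reads, one-sided), and the two-sided Poisson intervals end at 30.7 and 25.5 units, for counting error only. Of 24 other neutrophil genes 5 were listed, among them the gelatinase gene Mmp9 and the integrin gene Itgam, and their sum was 8, 14, 4 and 6 units over the 4 libraries. Ly6g, Ngp, Camp and Mpo, which are also on the list of neutrophil genes, had no row in the table used here. Of the 7 blood genes, the globins alone exceeded 3 reads in a mitochondria library.

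Across all genes the mitochondria libraries were lower, and with all 4 libraries the globins other than Hbb-bt lay above most genes. With limma, 0 of the 5 tested members were called higher, against 0.803% of all 8215 tested genes, and 0 were called lower, against 4.41%. At an unadjusted p under 0.05 there were 0 of the 5 members, against 1488 of all 8215 tested genes. With edgeR on reads 0 of the 5 members were called, against 135 of the 8215 genes called higher and 330 called lower. Such counts over 5 genes do not set the members apart from other genes. In all 5 members the groups overlapped, whereas they did not overlap in 60.7% of tested genes. All tested genes together had a median log2 fold change of -1.23 (quartiles -2.32 and -0.31), and 18.8% of genes were above 0. Relative to this median, Alas2 was at 1.77, Hbb-bs at 1.52, Hba-a2 at 1.19, Hba-a1 at 0.93 and Hbb-bt at -2.02. This placed Alas2 above 89.1% of tested genes, Hbb-bs above 86.1%, Hba-a2 above 80.6%, Hba-a1 above 75.3% and Hbb-bt above 11.2%. Over 5 scalings and edgeR on reads, the distance from the median stayed above 0 for Alas2 (1.49 to 1.81), Hbb-bs (0.75 to 1.56), Hba-a2 (0.50 to 1.23) and Hba-a1 (0.21 to 0.97) and below 0 for Hbb-bt (-2.19 to -0.63). When 1 library was left out, it stayed above 0 for Alas2 (0.61 to 2.45), Hbb-bs (0.84 to 2.20) and Hba-a1 (0.14 to 1.41) but changed sign for Hba-a2 (-0.087 without mitochondria replicate 2) and for Hbb-bt (0.47 without mitochondria replicate 1). Among the 1090 tested genes with a mean of at least 100 units the median of all was -0.94. The signs of the fold changes themselves depended on the scaling for Hba-a1 and Hba-a2, which were at 0.35 and 0.61 with median ratios over nuclear genes, and with CPM over all genes 5 of 5 members were called lower, as were 7963 of 8215 genes. Leaving out 1 library turned the sign of Hba-a1 (-0.92 to 0.32), Hba-a2 (-1.14 to 1.07), Hbb-bs (-0.37 to 0.95) and Alas2 (-0.31 to 1.39). These positions carry no test.

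**Figure D4:**
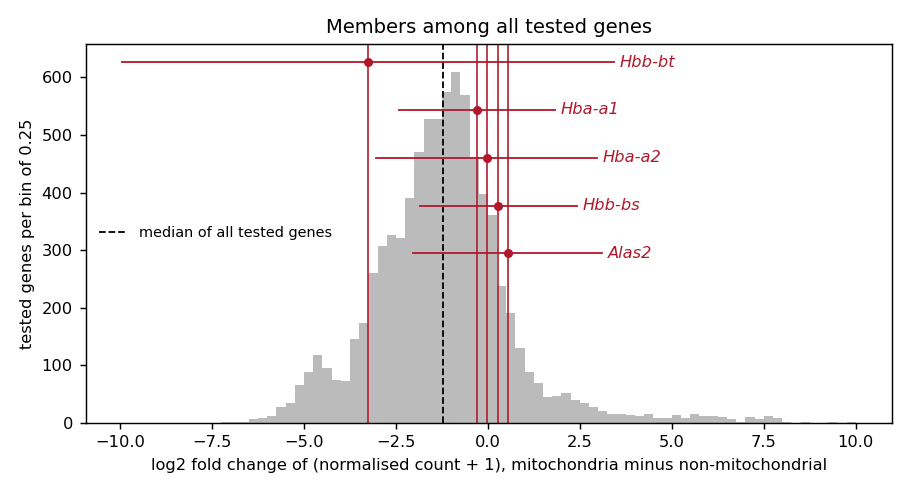
Histogram of log2 fold changes, mitochondria minus non-mitochondrial fraction, on the scale of log2 (normalised count + 1) for the 8215 tested genes (grey, bins of 0.25) with their median of -1.23 (dashed). Red points mark the 5 tested members with their 95% intervals, all of which include 0, and 4 of the points lie to the right of the median.

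Replicates differed in globin RNA. In the non-mitochondrial fraction, the ratio of replicate 2 to replicate 1 (value + 1) was 2.50 for Hbb-bs, 2.20 for Hbb-bt, 2.0 for Alas2, 1.93 for Hba-a2 and 1.86 for Hba-a1, against a median of 0.975 over all tested genes. These ratios exceeded those of 97.2 to 99.3% of tested genes. In mitochondria the 4 globins were also higher in replicate 2, at 1.72 times for Hbb-bs, 2.35 for Hba-a1, 4.63 for Hba-a2 and 49.0 for Hbb-bt, the last against 0 reads, whereas Alas2 was lower at 0.308 times, from 1 read against 3. Here the scatter is wide, and the median of the 4 globins exceeded 77.7% of tested genes. Among genes of skeletal muscle, 9 of 10 had the higher value in replicate 2 of the non-mitochondrial fraction (median ratio 2.11) and 1 of 10 in replicate 2 of mitochondria (median ratio 0.337). Brown adipocyte genes had median ratios of 0.869 and 2.29, and 13 other abundant cytosolic mRNAs such as Eef1a1 of 0.989 and 1.51, in the non-mitochondrial fraction and mitochondria respectively. Liver genes had median ratios of 0.125 and 0.0850 in the same order. Differences between 2 single libraries carry no test, and how much of them comes from muscle or other tissue was not tested.

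**Figure D5:**
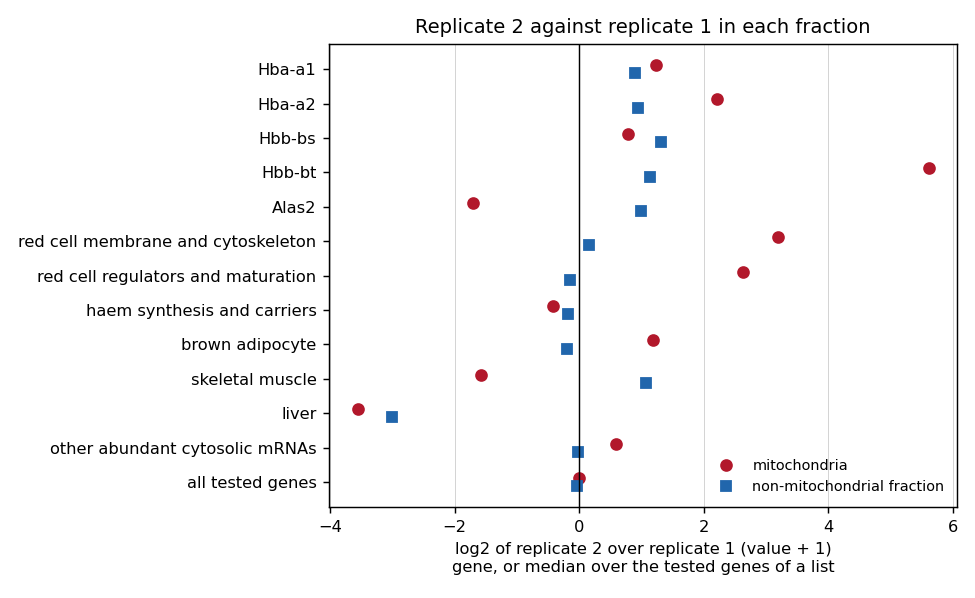
Log2 ratio of replicate 2 to replicate 1 (horizontal axis) in mitochondria (red circles) and the non-mitochondrial fraction (blue squares) for the 5 tested members and, as medians over the tested genes, for gene lists and all tested genes. The 4 globins are to the right of 0 in both fractions, while liver lies to the left in both and muscle on opposite sides.

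Other red cell genes were measured in part, and the medians of their lists lay near that of all tested genes (-1.23). Of 13 genes for the red cell membrane and its cytoskeleton 5 were listed and 4 tested, with 0 called (median log2 fold change -1.40), where 0.803% of all tested genes were called higher and 4.41% lower. Epb41, which encodes protein 4.1 of the spectrin network, was at 25, 48, 117 and 127 units, and Gypc, a glycophorin also made outside red cells, was at 0, 62, 40 and 42. Slc4a1, the anion exchanger that defines the red cell membrane, had no row in the table used here. Of 16 genes for red cell regulators and maturation 11 were listed and 5 tested, with 0 called (median -1.16). Prdx2, an antioxidant enzyme abundant in red cells, was at 33, 48, 96 and 87 units and Bnip3l, which acts in the removal of mitochondria from reticulocytes, at 25, 69, 76 and 69. Gata1, Klf1 and Ahsp were not listed, and Tal1 and Epor were at 0 reads in both mitochondria libraries. Each of the 4 tested membrane genes was higher in replicate 2 than in replicate 1 of both fractions. Median ratios were 1.12 in the non-mitochondrial fraction and 9.17 in mitochondria, and for the regulators 0.907 and 6.22. Of the membrane genes Gypc and Sptb, and of the regulators Mkrn1 and Bpgm, were at 0 reads in mitochondria replicate 1. The median ratios in mitochondria thus depend on the pseudocount of 1 and on few reads. Many of the red cell genes are expressed in other cells of the tissue as well.

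Genes of haem synthesis, a pathway that cells other than red cells use as well, were listed throughout. All 18 genes of the pathway and its iron and porphyrin carriers were listed and 14 tested, with 0 called (median log2 fold change -0.60, against -1.23 over all tested genes). Alas1, the housekeeping form of the first enzyme, was at 175, 145, 190 and 227 units. Fech, which inserts iron into the porphyrin ring, was at 108, 28, 111 and 70 units, Slc25a39, a mitochondrial carrier, at 58, 235, 186 and 175, and Tfrc, the transferrin receptor, at 42, 28, 107 and 117. In sum the pathway took 0.136% and 0.149% of nuclear values in mitochondria against 0.142% and 0.134% in the non-mitochondrial fraction, without the excess in replicate 2 seen for globins. Of the other globins, myoglobin (Mb), the oxygen store of muscle, was at 17 and 48 units in mitochondria against 1 and 7 in the non-mitochondrial fraction, and cytoglobin (Cygb) at 8, 7, 35 and 33. In both genes the groups did not overlap, as in 60.7% of all tested genes, and limma gave adjusted p-values of 0.29 and 0.16.

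Other blood cells left few transcripts. Of 13 platelet genes 4 were listed, led by Pf4 (platelet factor 4) at 8, 21, 3 and 3 units. B cell genes were at 0 reads in both mitochondria libraries and summed to 17 and 28 units in the non-mitochondrial fraction, of which the immunoglobulin heavy chain gene Ighm held 5 and 22. Of 16 T and natural killer cell genes only Cd4 was listed, at 0, 0, 2 and 0 units, and macrophages also express it. Of 13 other S100 genes 7 were listed and 6 tested, with 0 called (median -1.18). S100a1 was at 83, 124, 164 and 182 units and S100a13 at 50, 145, 85 and 70. Both were detected in all 4 libraries.

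Likeness to the globin sum over the 4 libraries was measured as the root mean square distance between centred log2 (value + 1) profiles among 1087 genes with a mean of at least 100 units, a limit that Alas2 did not reach. The nearest were Ehbp1l1 (0.304), Actb (0.320), Slc25a1 (0.343), Anp32a (0.351) and Igfbp5 (0.355). Actb, the cytoplasmic actin, was at 399, 994, 726 and 837 units, low in mitochondria replicate 1 as the globins were, but without their gap between the non-mitochondrial replicates. The globins' own distances from their sum were 0.126 for Hba-a1, 0.271 for Hba-a2, 0.345 for Hbb-bs and 2.13 for Hbb-bt. Over only 4 libraries such a likeness is a description.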

How the data were processed

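RNA was sequenced from 4 libraries of brown adipose tissue, made from 10 ng of total RNA with a Takara Pico Input Mammalian kit. The submitters' processing notes name Trimmomatic 0.39, STAR 2.7.10a, featureCounts 2.0.2, DESeq2 1.30.1 and the mouse genome build mm10. According to the study's methods, single-end reads that aligned to several places or genes were left out, and the fragmentation time was adjusted for mitochondrial samples. The table deposited by the authors holds a signal, gene counts divided by a size factor per library and rounded, for 17259 genes in 1 column per library. It has 0 columns of other samples.

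Whole reads were recovered from the steps of the values in the mitochondria libraries (100.0% of low values were whole reads within 0.75 units) and not in the others. Totals of the normalised values came to 218773335 and 171918657 (mitochondria) and to 1590096 and 1905303 (non-mitochondrial fraction). Genes with a mean of at least 10 (8215) were compared as log2 (value + 1) by limma 3.58.1 (R 4.3.3) with no trend option, with Benjamini-Hochberg adjustment over all tested genes and a threshold of 0.05. The pseudocount of 1 lets a gene at 0 in 1 library move by several log2 units. Shares were compared with exact permutation tests (scipy 1.17.1), with 95% Wilson intervals for mitochondria, and values of single genes carry exact Poisson intervals there. The 17 nuclear genes with a BLAST 2.17.0 match to mitochondrial transcripts (at least 90% identity over 50 bp) were left out of the totals for shares. Sequences came from RefSeq (GRCm38.p6) and GENCODE M21 (GRCm38).

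Members and gene lists were chosen with earlier results of these data known. Named were the 7 members, up to 4 genes of each list with the highest mean, further list genes (such as Tal1, Epor and genes without a row) chosen after their values were seen, and the 5 genes nearest to the globin sum. Of the lists, 1 item is not reported here by name. Likeness to the S100 pair was not computed because S100a9 reached at most 2 units. Alternatives covered pseudocount, filter, scaling, trend, replicate block, edgeR 4.0.16 and leaving out each library.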

Additional observations from a re-analysis of the deposited data

How the results depend on the processing

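With each alternative that kept 2 libraries per group, but for CPM over all genes, 0 members were called higher and 0 lower. Without mitochondria replicate 2 the log2 fold change of Hbb-bt was -6.06, from a lone mitochondria library at 0 reads. CPM over all genes sets the totals equal, so that mitochondrial transcripts shift every gene (median -7.15). There 5 members were called lower, with log2 fold changes of -8.13 for Hbb-bt, -6.94 for Hba-a1, -6.66 for Hba-a2 and, reversed, -6.40 for Hbb-bs and -5.34 for Alas2. Signs of members near 0 went with the shift of all genes: Hba-a1 became 0.048 after TMM, 0.35 by the median ratios of nuclear genes and 0.31 with CPM over nuclear genes without a mitochondrial match, and Hba-a2 0.31, 0.61 and 0.57, where the median of all genes was -0.90, -0.62 and -0.66. Hba-a2 was 0.32 with edgeR, where the values of the non-mitochondrial fraction were taken as reads. The cause was not tested. Leaving out 1 library gave -0.37 to 0.95 for Hbb-bs, -6.06 to -0.45 for Hbb-bt, -0.92 to 0.32 for Hba-a1, -1.14 to 1.07 for Hba-a2 and -0.31 to 1.39 for Alas2. The signs of Hbb-bs (without mitochondria replicate 2 or non-mitochondrial replicate 1), Hba-a1 and Hba-a2 (without mitochondria replicate 1 or non-mitochondrial replicate 2) and Alas2 (without mitochondria replicate 1) were reversed. The spread then came from 1 group, and the lone library was assumed to vary like it. The globin share differed by -0.0162 to 0.0730 percentage points when 1 library was left out. The difference was -0.0529 with all nuclear genes in the total, which then hold genes that match mitochondrial transcripts, and -0.0249 with all genes.

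Of all tested genes 66 were higher and 362 lower. Lower genes numbered 1 with a pseudocount of 10, 11 at a mean of at least 50 (2481 genes, without Hbb-bt and Alas2), 3587 with all genes, where 143 were higher, and 7963 with CPM over all genes, where 13 were higher. With edgeR 135 were higher. When 1 library was left out, 0 to 622 were higher and 0 to 3864 lower, with 0 each without a non-mitochondrial replicate. With the replicate number as a block 0 genes were higher and 0 lower. Libraries with the same number deviated together with a correlation of 0.112 over 8215 genes, which rests on 1 pair of differences, and no label states a pairing. With 59288 and 67370 nuclear reads in mitochondria, Alas2 (3 reads and 1 read), Hbb-bt (0 and 7) and S100a9 (0 and 0) had the fewest reads of the listed members. The ratio of S100a8 to S100a9 was not run because S100a8 was not listed.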
